A study of Homo sapiens with 9 samples.

Results

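Enzymes that make the sugar donor UDP-GlcNAc and enzymes that build and cap O-linked glycans were followed in LNCaP cells, an androgen-responsive line derived from a human prostate cancer metastasis. The set holds 8 genes, GFPT1, GNPNAT1, PGM3, UAP1, OGT, GALNT7, GCNT1 and ST6GALNAC1, and a probe set was taken for a gene when its annotation named that gene alone. This gave 17 probe sets for 7 of the 8 genes, out of 54675 probe sets and 19775 genes on the arrays. No probe set named PGM3 alone, and its level was not analysed here. Where a gene had several probe sets, the one with the highest mean over the arrays stands for it.

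RNA was measured on 9 Affymetrix arrays, 1 for each group. All cells are LNCaP. In the inhibitor series, steady-state cells were grown in 10% fetal bovine serum, and the other cells were kept for 48 h in 5% charcoal-stripped serum, which holds little androgen. The deprived cells received etoposide followed by dihydrotestosterone (DHT), merbarone followed by DHT, DHT alone, or vehicle. DHT, the most potent natural androgen, was given at 100 nM for 16 h, and each inhibitor at 100 µM from 2 h before DHT. Etoposide is a topoisomerase II poison that traps the enzyme on cut DNA, merbarone inhibits its catalytic cycle, and both act on TOP2A and TOP2B. In the shRNA series, LNCaP cells were transfected with a GFP vector carrying sh-TOP2B or sh-control, deprived of androgen in the same way, given DHT or vehicle, and sorted for GFP. The 2 series thus differ in transfection and sorting as well as in the knockdown, and every group is a single array of 1 cell line.

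UDP-GlcNAc is made by the hexosamine pathway. GFPT1 commits a fructose phosphate and glutamine to it, GNPNAT1 adds the acetyl group, PGM3 moves the phosphate, and UAP1 makes UDP-GlcNAc in the last step. OGT spends UDP-GlcNAc on single GlcNAc residues of nuclear and cytoplasmic proteins. In the Golgi, GALNT7 adds GalNAc to peptides that already carry it, GCNT1 adds the GlcNAc branch that makes core 2 O-glycans, and ST6GALNAC1 puts sialic acid on the first GalNAc, which gives the sialyl-Tn antigen. In prostate cancer cells several of these enzymes are known as androgen-regulated genes.

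Promoter windows of RefSeq (GRCh38.p14), from 250 bases before to 50 bases after an annotated start, were available for 7 of the 8 genes in 13 windows, and ST6GALNAC1 was the gene without one. They are shown because 5 of these 7 genes, UAP1, GFPT1, PGM3, GNPNAT1 and GCNT1, held the same 6 letters, GACGTG or its reverse complement CACGTC. Counted by gene, 9.34% of all genes held them. Counted by window, they were in 7 of the 13, against 7.81% of the 35116 windows of all genes. The UAP1 stretch below was counted in overlapping windows, at 18 and -173 bases from their starts. Another UAP1 match, at chr1:162561860-162561887, is not shown. The motif was chosen after the windows had been looked at. The capitals below mark the 6 letters, or the 8 letters of the longer motif in the second GCNT1 stretch, and each stretch reads 5′ to 3′ on the strand of its gene.
UAP1, chr1:162561538-162561565, plus strand: ctcccggcgctGACGTGtctgggcggtc
GFPT1, chr2:69387390-69387417, minus strand: cgagccactgcCACGTCgccgccgccag
PGM3, chr6:83193256-83193283, minus strand: ccacgcagggcCACGTCtgcggttctga
GNPNAT1, chr14:52791563-52791590, minus strand: gttggcgctgcCACGTCtgggccgcggt
GCNT1, chr9:76459113-76459140, plus strand: ggcgaggcgggGACGTGgtgggcggggc
GCNT1, chr9:76459016-76459045, plus strand: ctactcccagaCCACGTCAgtgcccagagg
The second GCNT1 stretch holds TGACGTGG, here as its reverse complement CCACGTCA, the unfolded protein response element, which overlaps the shorter motif and was in 0.729% of all windows. The palindromic androgen response element, 2 half-sites that face each other 3 bases apart, was in 0 of the 13 windows and in 1 of the 35116, and its half-site AGAACA, searched on both strands, was in 0 of the 13 windows, against 14.8% of all windows. These are matches of letters in short windows and no measure of binding.

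A level is called dim when it lies below the median of its own array, which was 5.61 to 5.72 in the deposited log2 values. Arrays correlated at 0.951 to 0.995 within a series and at 0.880 to 0.916 between series. The 3′ minus 5′ difference of the beta-actin control probes was 0.38 to 0.70 in the inhibitor series and 2.38 to 3.09 in the shRNA series, so the series also differed in this sign of RNA quality, whose part in the results was not tested. TOP2B, the target of the knockdown, was at 10.01 with DHT and 10.09 with vehicle in sh-TOP2B cells, against 10.87 and 10.54 in sh-control cells (difference -0.66 ± 0.12, limma adjusted p = 0.0934). Of 6 luminal prostate markers measured, 5 were above the median on all 9 arrays, and the sixth, KLK3, was dim only with merbarone. Of 10 markers of basal, stromal, endothelial, leukocyte and neuroendocrine cells, KRT14, COL3A1, DCN, PTPRC and CHGA were dim on all 9 arrays and KRT5 on 8. PECAM1 was dim on the 4 sorted arrays (4.89 to 5.46) and not on the others (6.35 to 6.66), SYP was dim on 2 (5.35 to 6.53 over all), and COL1A1 (8.05 to 9.63) and VWF (6.07 to 7.95) were dim on none. In such bulk samples fewer cells of a kind and less RNA per cell cannot be told apart.

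Differences were tested with limma in a fit over 11865 genes, from which all genes with a mean below the 40th percentile were left out, and all 7 measured genes were among those tested. The spread comes from how far the DHT effect varied between 3 pairs of arrays, 1 in the inhibitor series, 1 in sh-TOP2B cells and 1 in sh-control cells, and a lone array is assumed to vary like these. A gene counts as changed at an adjusted p under 0.05. The set and the lists used below were chosen with earlier results of these data known. Their counts beside the share of all genes therefore only describe them and are no test of the set. The labels name no separate cultures, so p-values reflect only how these arrays scatter, which may be technical.

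Among the supply enzymes, GFPT1, the entry enzyme of the pathway, was at 10.68 in steady-state cells, 10.76 with etoposide and DHT, 11.03 with merbarone and DHT, 10.97 with DHT and 10.98 with vehicle. In the shRNA series it was at 10.09 with DHT and 10.07 with vehicle in sh-TOP2B cells, and at 10.37 and 10.00 in sh-control cells. On this probe set, 202722_s_at, the arrays of 1 series thus lay within 0.4 of each other, but on 226886_at the inhibitor series ran between 8.96 and 10.13. GNPNAT1 was at 11.05 in steady-state cells, 9.75 with etoposide and DHT, 9.51 with merbarone and DHT, 9.93 with DHT and 9.86 with vehicle. In sorted cells GNPNAT1 was at 12.38 with DHT and 12.04 with vehicle under sh-TOP2B, and at 12.41 and 12.12 under sh-control. All 4 sorted arrays lay above all 5 of the inhibitor series, with sh-control vehicle 2.26 above vehicle, a gap in which transfection, sorting and series cannot be told apart.

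UAP1, the last enzyme of the pathway, was at 13.13 in steady-state cells, 12.97 with etoposide and DHT, 11.75 with merbarone and DHT, 13.35 with DHT and 13.01 with vehicle. In sorted cells UAP1 was at 13.02 with DHT and 12.41 with vehicle under sh-TOP2B, and at 13.09 and 12.43 under sh-control. Each DHT array stood above its vehicle array, and the merbarone array was the lowest of the 9. OGT was at 11.16 in steady-state cells, 11.31 with etoposide and DHT, 9.84 with merbarone and DHT, 11.08 with DHT and 11.33 with vehicle. In sorted cells OGT was at 11.48 with DHT and 11.67 with vehicle under sh-TOP2B, and at 11.64 and 11.81 under sh-control. On this probe set of OGT, 209240_at, each DHT array stood below its vehicle array, and the merbarone array was again the lowest by more than 1.

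Among the O-glycan enzymes, GALNT7 was at 12.28 in steady-state cells, 12.77 with etoposide and DHT, 12.28 with merbarone and DHT, 13.16 with DHT and 13.15 with vehicle. In sorted cells GALNT7 was at 12.26 with DHT and 12.14 with vehicle under sh-TOP2B, and at 11.76 and 11.73 under sh-control. DHT and vehicle arrays were nearly level within each pair, and both sh-TOP2B arrays lay above both sh-control arrays. GCNT1 was at 9.71 in steady-state cells, 7.91 with etoposide and DHT, 7.38 with merbarone and DHT, 9.36 with DHT and 9.05 with vehicle. In sorted cells GCNT1 was at 10.00 with DHT and 9.04 with vehicle under sh-TOP2B, and at 10.25 and 8.93 under sh-control. Both inhibitor arrays of GCNT1 lay below every other array on this probe set, 239761_at. On the other, 205505_at, the merbarone array was the lowest at 6.76, while etoposide, at 7.49, lay above the vehicle arrays of sh-TOP2B (6.98) and sh-control cells (6.85).

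ST6GALNAC1 had the widest range of the 7 genes. It was at 9.22 in steady-state cells, 7.93 with etoposide and DHT, 6.33 with merbarone and DHT, 8.74 with DHT and 5.56, a dim level, with vehicle. In sorted cells ST6GALNAC1 was at 8.94 with DHT and 6.91 with vehicle under sh-TOP2B, and at 9.06 and 5.87 under sh-control. The 4 arrays of cells with androgen and no inhibitor were the 4 highest, and the 3 vehicle arrays overlapped the merbarone array. Of neighbours in the order of the inhibitor series, steady state and DHT differed by 0.48, against an SE of 0.42 for 1 array against 1, and the difference of etoposide from DHT did not pass the test.

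**Figure D1:**
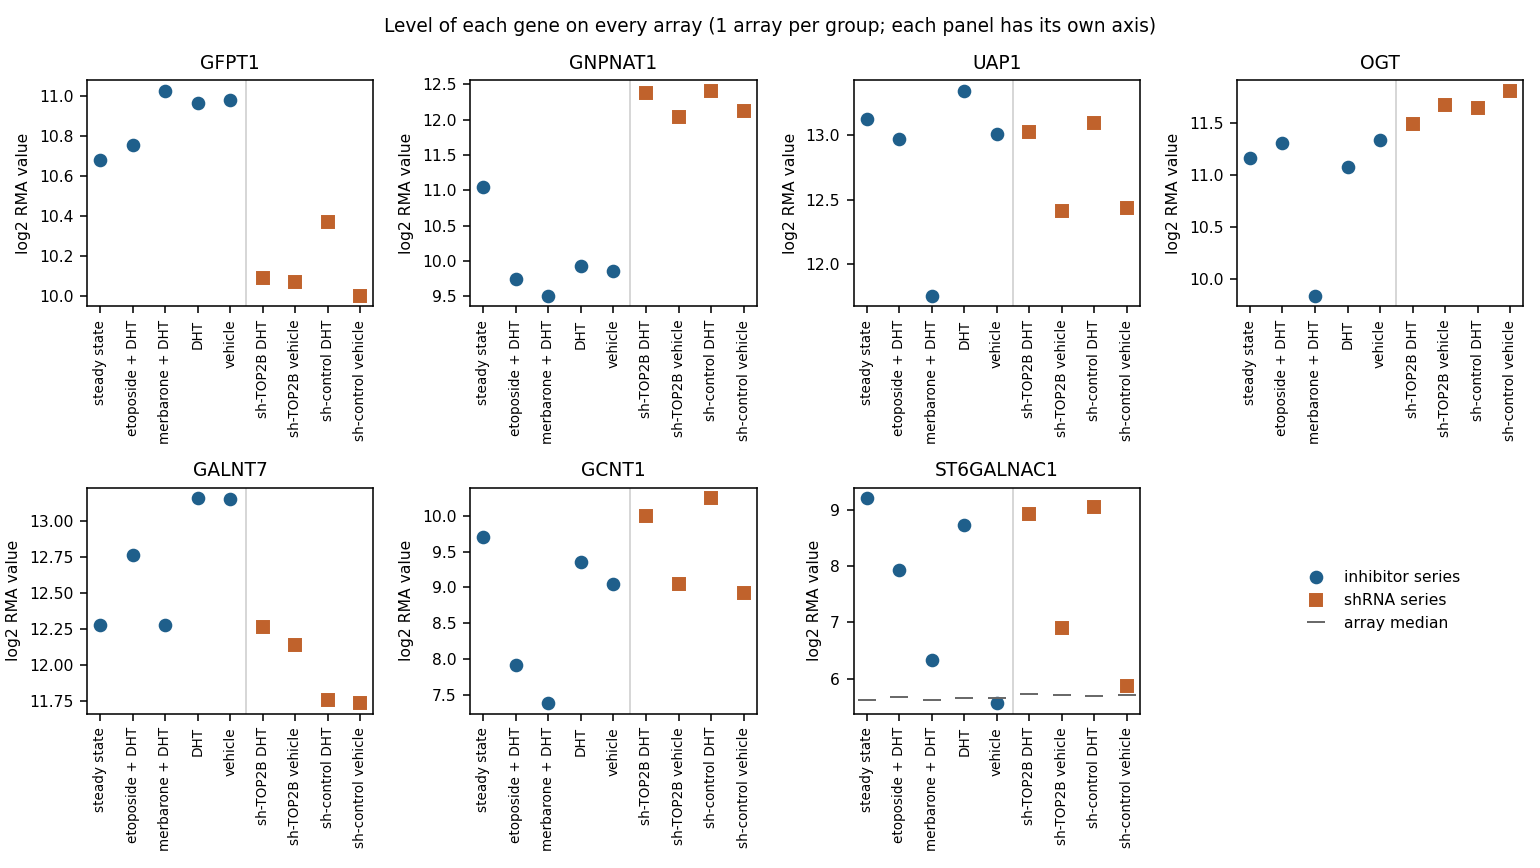
Log2 level of each of the 7 measured genes (y axis, a separate scale per panel) on each array (x axis), with circles for the inhibitor series, squares for the shRNA series and short lines at the array medians where the axis reaches them. ST6GALNAC1 is at 8.74 to 9.22 on the 4 arrays of cells with androgen and no inhibitor, and UAP1 and OGT are lowest with merbarone.

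The first comparison asks what DHT did to these genes in deprived cells. ST6GALNAC1 and UAP1 rose, so that 2 of 7 genes were higher, against 0.421% of all genes tested, and 0 were lower, against 0.0253%. ST6GALNAC1 was higher by 3.18 in the inhibitor series, by 2.03 under sh-TOP2B and by 3.19 under sh-control. Its mean difference was 2.80 ± 0.24 (SE, 3 pairs; limma adjusted p = 0.0119), and with the dim vehicle level raised to the array median it was at least 6.79-fold higher. Only 0.0506% of genes tested had a larger difference than ST6GALNAC1. UAP1 was higher by 0.34, 0.61 and 0.66 in the same pairs, with a mean of 0.54 ± 0.07 or 1.45-fold (limma adjusted p = 0.0393).

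GCNT1 was at 0.86 ± 0.19 (limma adjusted p = 0.101) and did not pass, with 0.30 in the inhibitor series, 0.96 under sh-TOP2B and 1.32 under sh-control. GNPNAT1 was at 0.24 ± 0.08 (limma adjusted p = 0.182), GFPT1 at 0.12 ± 0.10 and GALNT7 at 0.05 ± 0.05. OGT was at -0.20 ± 0.06 (limma adjusted p = 0.161). Above 0 in all 3 pairs were 5 of the 7 genes (ST6GALNAC1, UAP1, GCNT1, GNPNAT1 and GALNT7), against 18.0% of all genes, and OGT was below 0 in all 3, against 21.9%. The second GALNT7 probe set was at -0.03 in the inhibitor series pair, and 207564_x_at and 229787_s_at of OGT were above 0 in 1 pair each. With arrays centred on control genes GALNT7 was at -0.03, and of all calls 60.3% were higher, against 94.3% as deposited. The calls rested on few pairs and on the intensity trend, without which limma gave adjusted p = 0.107 for ST6GALNAC1 and 0.230 for UAP1. Without the sh-control pair limma gave adjusted p = 0.415 for ST6GALNAC1 and 0.635 for UAP1, and without the sh-TOP2B pair 0.447 for UAP1. Without the inhibitor series pair, 4 genes passed, GCNT1 (1.14, limma adjusted p = 2.56e-05) and GNPNAT1 (0.32, limma adjusted p = 0.00486) among them, and the count over all genes was 2519, against 53 with all pairs.

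**Figure D2:**
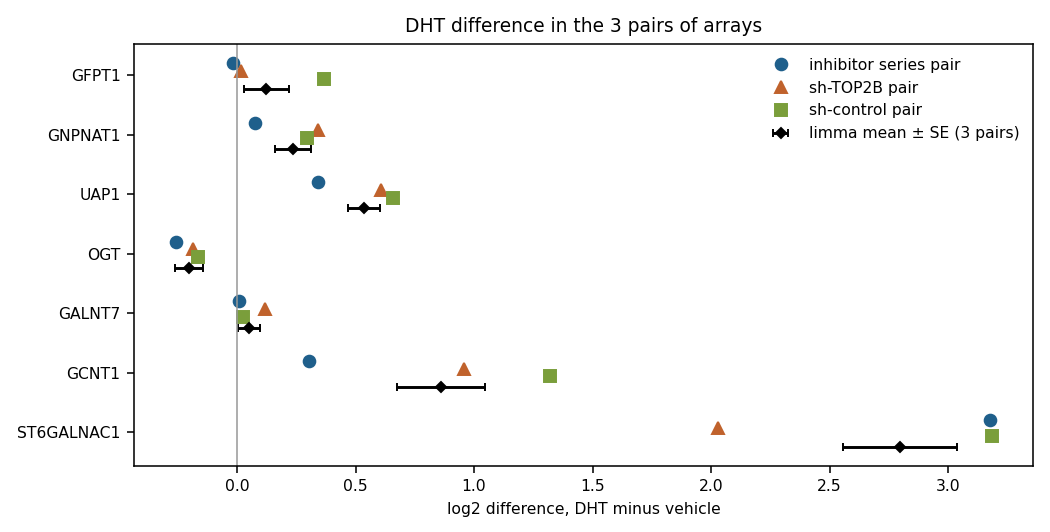
Log2 difference of DHT minus vehicle (x axis) for each gene (rows) in the inhibitor series pair, the sh-TOP2B pair and the sh-control pair, with the limma mean and its SE as a black diamond. ST6GALNAC1 lies between 2.03 and 3.19 in the 3 pairs, UAP1 between 0.34 and 0.66, and OGT is below 0 in each.

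Serum-grown cells were set against deprived cells with vehicle. ST6GALNAC1 and GNPNAT1 were higher and GALNT7 was lower in steady-state cells, so that 3 of 7 genes changed, against 28.1% of all genes. ST6GALNAC1 was higher by at least 3.56 or 11.8-fold (deposited difference 3.66 ± 0.42, limma adjusted p = 0.00142). GNPNAT1 was higher by 1.19 ± 0.13 or 2.29-fold (limma adjusted p = 0.00130). Against the same vehicle array DHT gave GNPNAT1 a difference of 0.07, and the mean of the 3 DHT pairs was 0.24. GALNT7 fell by 0.87 on the log2 scale (SE 0.08, limma adjusted p = 0.000722), and its second probe set by 1.03. UAP1 (0.12 ± 0.12), GCNT1 (0.66 ± 0.32), GFPT1 (-0.30 ± 0.17) and OGT (-0.17 ± 0.10) did not pass. Over all genes, centring on control genes moved the median by -0.31, took the share of higher calls to 23.6%, against 55.7% as deposited, and turned UAP1 to -0.19. Under that centring GFPT1 and OGT passed as lower, at -0.61 (limma adjusted p = 0.0275) and -0.48 (limma adjusted p = 0.0258). The 9 control genes themselves ran between -0.25 and 1.24 in this comparison as deposited, with a median of 0.18, so this setting has its own uncertainty. The GFPT1 probe sets disagreed here, with deposited differences of -0.30 and -0.55 on 202722_s_at and 202721_s_at, and of 0.26 and 0.27 on 226886_at and 227027_at, so no direction is given for it.

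Etoposide with DHT was set against DHT alone, 1 array against 1. None of the 7 genes passed (limma, with 1.05% of all genes called), and 3 of 7 had an unadjusted p under 0.05, against 14.6% of all genes. The largest difference was that of GCNT1, at -1.44 ± 0.32 or 0.368 of the DHT level (limma adjusted p = 0.118), and its second probe set was at -0.84. ST6GALNAC1 was at -0.80 ± 0.42 (limma adjusted p = 0.454), GALNT7 at -0.40 ± 0.08 (limma adjusted p = 0.101) and UAP1 at -0.37 ± 0.12 (limma adjusted p = 0.217). Below 0 were 6 of 7 genes, and OGT, at 0.23 ± 0.10, was the exception. The median of all genes tested was itself -0.06. GNPNAT1 (-0.19) and GFPT1 (-0.21) had 68.3% and 71.4% of all genes above them. With a DHT level estimated from the 3 pairs in place of the DHT array, a setting added after the data were seen, GCNT1 passed at -1.72 (limma adjusted p = 0.0451). Of all genes called, 20.2% were higher with etoposide, against 31.5% after a second quantile normalization and 43.8% after centring on control genes, which moved the median of all genes by 0.14. KLK3, the androgen-induced gene of prostate-specific antigen, fell by 3.34 on the same arrays (limma adjusted p = 0.00189). TMPRSS2 and FKBP5, further androgen-induced genes read as checks, were at -1.34 ± 0.33 and -0.93 ± 0.35 and did not pass.

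Most of the 7 genes were lower with merbarone and DHT than with DHT alone. The test called 5 lower and 0 higher, against 16.3% of all genes lower and 15.4% higher, and the median of the 7 differences was -1.23, against 0 over all genes tested. ST6GALNAC1, the sialyltransferase, fell to 0.189 of the DHT level (-2.40 ± 0.42, limma adjusted p = 0.00645). Its merbarone level was at least 0.68 above the vehicle array, a gap that was not tested, where the SE was 0.42. GCNT1 fell to 0.255 of the DHT level (-1.97 ± 0.32, limma adjusted p = 0.00532), with a difference of -1.67 from the vehicle array. UAP1 fell to 0.331 of the DHT level (-1.59 ± 0.12, limma adjusted p = 0.000395), with a difference of -1.25 from the vehicle array. OGT was at -1.23 ± 0.10 (limma adjusted p = 0.000576) and GALNT7 at -0.88 ± 0.08 (limma adjusted p = 0.000821), both lower.

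GNPNAT1 was at -0.42 ± 0.13 with merbarone (limma adjusted p = 0.0506) and GFPT1 at 0.06 ± 0.17 (limma adjusted p = 0.852). GNPNAT1 passed after a second quantile normalization, at -0.46 (limma adjusted p = 0.0477), and against the fitted DHT level, at -0.50 (limma adjusted p = 0.0179). Over all genes, centring on control genes moved the median by 0.29 and took the share of higher calls to 74.6%, against 48.5% as deposited. That setting uses the median level of 9 control genes on each array. Their own deposited differences with merbarone ran between -0.46 and 0.26, with a median of -0.03, so they were not all stable. Under that centring the same 5 genes stayed lower, and the median of the 7 genes was -0.95, against 0.29 over all genes.

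**Figure D3:**
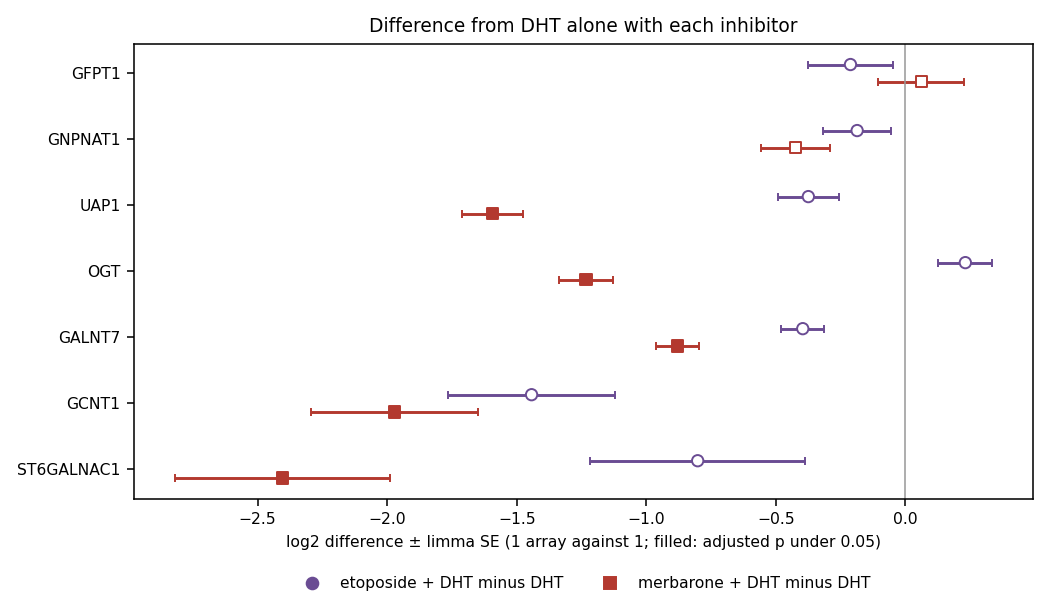
Log2 difference from DHT alone (x axis, with the limma SE) for each gene (rows) with etoposide and DHT (circles) and with merbarone and DHT (squares), where filled marks passed at an adjusted p under 0.05. The 5 filled marks are all merbarone, between -2.40 and -0.88.

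Probe sets of 1 gene disagreed in part. For GFPT1, 202722_s_at and 202721_s_at were at 0.06 and 0.14 with merbarone against DHT, while 226886_at and 227027_at were at -1.04 and -0.71. The median over the 4 probe sets of GFPT1 was -0.36 (limma adjusted p = 0.131), so no direction is given for this gene. All 4 were below 0 with etoposide, between -0.56 and -0.21. For OGT, 209240_at, 229787_s_at and 207564_x_at were at -1.23, -1.50 and -0.995 with merbarone, while 212307_s_at and 207563_s_at were at -0.22 and -0.17, and 220594_at was dim on all 9 arrays. The median over the probe sets of OGT was -0.58 (limma adjusted p = 0.0540), so its call with merbarone rests on which probe set stands for it. GALNT7 (-0.88 and -1.40) and GCNT1 (-1.97 and -1.57) were lower with merbarone on both of their probe sets. ST6GALNAC1, UAP1 and GNPNAT1 had 1 probe set each.

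**Figure D4:**
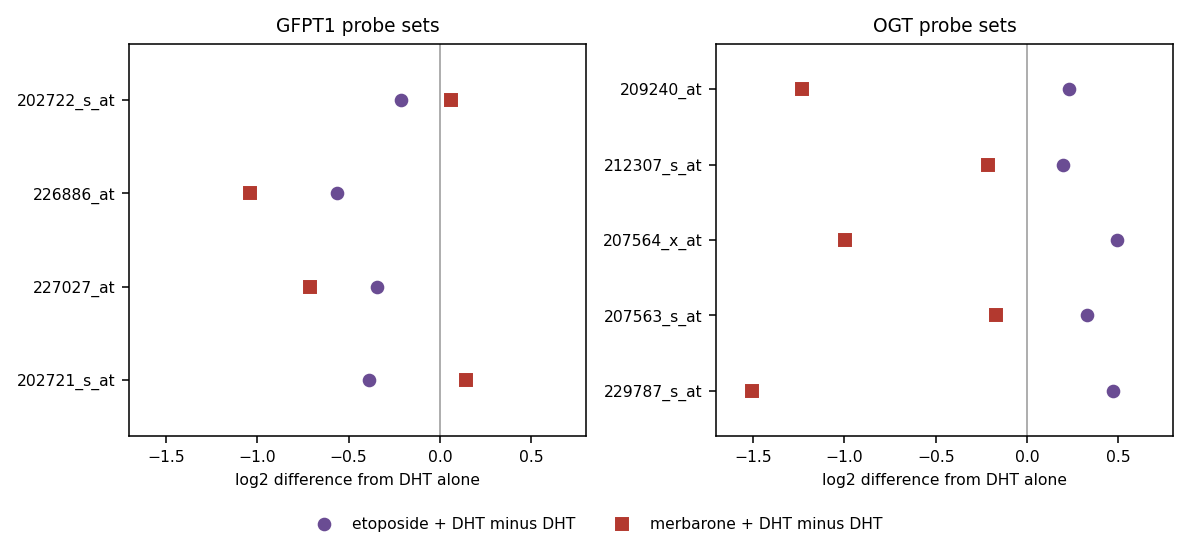
Log2 difference from DHT alone (x axis) on each probe set (rows) of GFPT1 (left) and of OGT (right, without the probe set that was dim on all arrays), with etoposide and DHT (circles) and with merbarone and DHT (squares). With merbarone GFPT1 ranges between -1.04 and 0.14 and OGT between -1.50 and -0.17, while with etoposide each GFPT1 probe set is below 0 and each OGT probe set above it.

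Etoposide was then compared with merbarone, both with DHT and at matched dose and duration. ST6GALNAC1, UAP1, OGT and GALNT7 were higher with etoposide than with merbarone, 4 of 7, against 13.5% of all genes, and 0 were lower, against 19.1%. OGT was higher by 1.46 ± 0.10 or 2.76-fold (limma adjusted p = 0.000457), and all 5 of its probe sets that were not dim lay above 0. UAP1 was higher by 1.22 ± 0.12 or 2.33-fold (limma adjusted p = 0.00101), ST6GALNAC1 by 1.60 ± 0.42 or 3.03-fold (limma adjusted p = 0.0273) and GALNT7 by 0.48 ± 0.08 (limma adjusted p = 0.00658). GCNT1, low with both inhibitors, differed by 0.53 ± 0.32 (limma adjusted p = 0.269), which does not show that they act alike on it. GNPNAT1 was at 0.24 ± 0.13 and GFPT1 at -0.27 ± 0.17. Without the sh-control pair ST6GALNAC1 missed the threshold (limma adjusted p = 0.0557), without the intensity trend ST6GALNAC1 (0.0622) and GALNT7 (0.0638) missed it, and without the inhibitor series pair GCNT1 passed it (0.0221). The split of all calls, 41.4% higher with etoposide, was 28.7% with arrays centred on control genes, which moved the median of all genes by -0.14.

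Knockdown of TOP2B was followed in the 4 sorted arrays. GALNT7 was the 1 gene of 7 that passed, against 1.05% of all genes, and it was higher in sh-TOP2B cells than in sh-control cells, by 0.50 with DHT and by 0.41 with vehicle. Its mean difference was 0.45 ± 0.06 or 1.37-fold (limma adjusted p = 0.0199), and its second probe set gave 0.44 with DHT and 0.36 with vehicle. ST6GALNAC1 was at 0.46 ± 0.29 (limma adjusted p = 0.858), with -0.12 under DHT and 1.04 under vehicle, where the sh-control level of 5.87 lay just above the median of its array. UAP1 (-0.05 ± 0.08), GCNT1 (-0.07 ± 0.23), GNPNAT1 (-0.06 ± 0.09), GFPT1 (-0.11 ± 0.12) and OGT (-0.15 ± 0.07) did not pass. Over all genes tested, 124 passed as higher and 0 as lower, so the direction of GALNT7 was that of every call. GALNT7 missed the threshold when the spread was fitted without its trend on intensity (limma adjusted p = 0.321).

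The DHT response of sh-TOP2B cells minus that of the other cells was tested as an interaction. limma called 0% of the 11865 genes, with 205 (1.73%) at an unadjusted p under 0.05, and 0 of the 7. ST6GALNAC1 was the 1 gene of the 7 with an unadjusted p under 0.05. The difference in its response was -1.15 ± 0.29 (limma unadjusted p = 0.00706, adjusted p = 1.000), and between sh-TOP2B and sh-control cells most of it lay in the vehicle arrays, at 6.91 under sh-TOP2B and 5.87 under sh-control. The other 6 genes lay between -0.16 (GFPT1) and 0.16 (GNPNAT1). OGT, at 0.03, turned to -0.02 after a second quantile normalization and to -0.03 with arrays centred on control genes.

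Other genes of these pathways were read from 5 lists, of which 53 genes were tested. DHT changed 0 of the 53 (limma), against 0.447% of all genes, with 11 at an unadjusted p under 0.05, against 19.3%. Etoposide changed 1, against 1.05% of all genes. It was TMEFF2, which encodes a surface proteoglycan (-1.93 ± 0.14, limma adjusted p = 0.00436). Merbarone changed 32, of which 26 were lower and 6 higher, against 16.3% of all genes lower and 15.4% higher. Of 7 other GalNAc transferases 5 fell, among them GALNT2 (-1.34), GALNT3 (-1.21) and GALNT10 (-1.13), and 0 rose. Their median was -0.84 as deposited and -0.55 after centring on control genes. Of 12 genes of core synthesis and capping 6 fell and 0 rose, and the median was -0.56 as deposited and -0.28 after centring. C1GALT1C1, the chaperone of the core 1 enzyme, was at -2.11, B3GNT2 at -1.54, SLC35A2, the UDP-galactose transporter, at -1.29 and ST3GAL1 at -1.21.

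Of 16 genes of UDP-GlcNAc and sialic acid supply, 5 rose with merbarone and 4 fell, against 15.4% and 16.3% of all genes. The median of this list was 0.04 as deposited and 0.32 after centring. UAP1L1, a homologue of UAP1, was at 10.36 with merbarone and DHT and at 6.53 with DHT (3.83 ± 0.31, limma adjusted p = 0.000519), opposite to UAP1 on the same arrays. Also higher were GNPDA1 (2.26), which turns glucosamine phosphate back towards glycolysis, and HK2 (1.58), a hexokinase. Lower were SLC35A1 (-1.20), the Golgi transporter of CMP-sialic acid, and SLC17A5 (-1.08), the lysosomal sialic acid exporter. Of 6 O-glycan carriers 4 fell, PODXL (-1.18), TMEFF2 (-0.91), SDC1 (-0.70) and CD164 (-0.28), but with arrays centred on control genes 2 of the 6 were called, with CD164 at 0.01 and SDC1 at -0.41 (limma adjusted p = 0.155) not among them. In steady-state cells against vehicle, 5 of the 7 GalNAc transferases were lower, against 12.4% of all genes, led by GALNT10 (-2.24) and GALNT18 (-1.39).

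**Figure D5:**
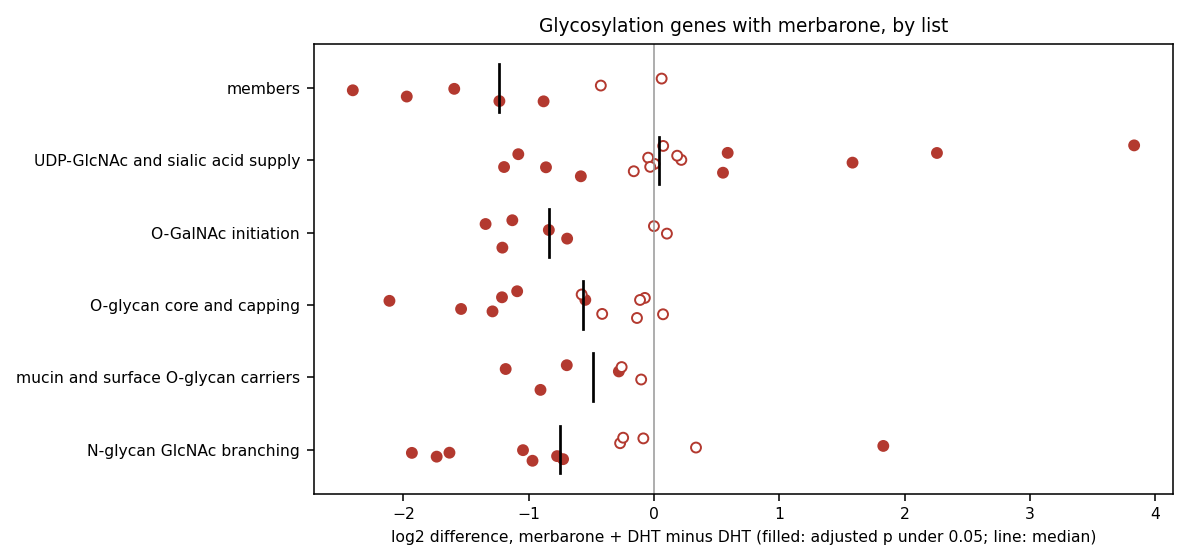
Log2 difference of merbarone and DHT minus DHT (x axis) for each tested gene (points, spread at random within a row for legibility) of the 7 measured genes and of 5 pathway lists, where filled points passed at an adjusted p under 0.05 and a line marks the median. The 7 genes have a median of -1.23 and the GalNAc transferases of -0.84, while the supply list holds UAP1L1 at 3.83 and has a median of 0.04.

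The genes most like ST6GALNAC1, GCNT1 and UAP1 were ranked by Pearson's r over the 9 arrays after each series was centred on its own mean, among 4700 genes with an SD of at least 0.3. Arrays of a series share controls and treatment, so these values only describe the profiles. ST6GALNAC1 was most like ENDOD1 (0.960), GREB1 (0.956), MAF (0.949), ABHD2 (0.944) and KLK2 (0.943). GCNT1 was most like SLC4A4 (0.982), ZFHX3 (0.981), LPCAT1 (0.979), MANF (0.974) and SDF2L1 (0.971). UAP1 was most like SSR1 (0.983), CLDN8 (0.978), B3GLCT (0.976), LPAR3 (0.975) and TTTY15 (0.973). The 3 lists share no gene. Between GCNT1 and UAP1 the value was 0.850, between ST6GALNAC1 and UAP1 0.649 and between ST6GALNAC1 and GCNT1 0.644.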

How the data were processed

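The table held log2 values made by the authors with RMA, per the submitters' processing notes; the scanner files were not used here. No build or aligner applies. Probe sets were named by the platform annotation (41043 matched to RefSeq by gene ID, no symbol changed), and of 54675 probe sets 41097 had 1 symbol, 1801 several and 11777 none. limma 3.58.1 in R 4.3.3 fitted the 3 backgrounds as blocks and DHT over all 9 arrays, with an intensity trend, Benjamini-Hochberg adjustment over 11865 genes and a threshold of 0.05. The steady-state, etoposide and merbarone arrays were each compared directly with their reference array. The fit was tested on simulated data. Arrays have no counts, so their number limits the precision. The members and gene lists were chosen with earlier results of these data known. All measured members are named, with at most 5 genes per list and comparison that passed, by size. Alternatives were no trend, no filter, the median over probe sets, quantile normalization again, centring on 9 control genes, leaving out a pair, and no block. No per-sample column was left out.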

Additional observations from a re-analysis of the deposited data

How the results depend on the processing

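With 1 array a group and 3 DHT pairs, counts near the threshold depend on how the spread is estimated; the causes were not tested. Of the single-gene results under alternatives, 337 kept their direction and side of the threshold, 13 were weaker, 8 stronger and 6 turned. For DHT, 2 genes of the set and 53 genes in all passed; the counts were 0 and 5 without the intensity trend, 1 and 20 without the filter and 0 and 0 with no replicate block, that is without pairing arrays by background. Over all genes the DHT count was 35 with the median over probe sets and 214 centred on control genes, and leaving out 1 pair gave 1 to 2519 genes and 0 to 4 of the set. For etoposide against DHT, with 0 of the set and 124 genes, the count of genes was 0 without the trend, 56 without the filter, 0 to 29 without the sh-control or the sh-TOP2B pair, and 232 (1 of the set) against the fitted DHT level. For etoposide against merbarone 2 of the set passed without the trend, in place of 4. For sh-TOP2B 0 of the set and 81 genes passed without the trend, in place of 1 and 124, and 293 genes without the inhibitor series pair. For steady state 5 of the set passed centred on control genes, in place of 3. The interaction gave 2 genes centred on control genes, in place of 0. GFPT1 with merbarone, at 0.06, was at -0.36 with the median over probe sets and at -0.0080 against the fitted level. GALNT7 with DHT was at -0.030 and UAP1 in steady-state cells at -0.19, both centred on control genes, and OGT in the interaction was at -0.018 after quantile normalization and -0.031 centred. The counts for merbarone stayed within 1.5 times of 5 and 3757 under each alternative. A level near or below the array median, such as that of ST6GALNAC1 with vehicle, gives a lower bound.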

Other observations

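Genes of N-linked glycan synthesis and branching, some of which use the same UDP-GlcNAc, were described by the same fit. With merbarone and DHT against DHT alone, 7 of 12 tested were lower and 1 higher, against 16.3% and 15.4% of all genes. The median was -0.75 as deposited and -0.46 after centring on control genes, where 5 were lower and 2 higher. ALG14, which helps to add the second GlcNAc of the lipid-linked precursor, was at -1.93, the branching enzymes MGAT4A and MGAT5 at -1.73 and -1.63, and DPAGT1, the first enzyme of the precursor, at -1.04. The sialyltransferase ST3GAL3 was higher, at 9.13 with merbarone and DHT and 7.30 with DHT (1.83 ± 0.20, limma adjusted p = 0.00127). MGAT5 was at 9.88 in steady-state cells and 11.36 with vehicle, and ST6GAL1 at 6.31 and 7.68. They were 2 of the 4 genes of this list that were lower in serum-grown cells, of 12 tested, against 12.4% of all genes.

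In sorted cells 2 of the 53 tested genes of the lists passed for sh-TOP2B against sh-control, both higher, against 1.05% of all genes. Over all genes tested, 124 passed as higher and 0 as lower, so the direction does not set these 2 apart. PODXL, which encodes podocalyxin, was at 10.48 with DHT and 10.38 with vehicle under sh-TOP2B, and at 9.66 and 9.52 under sh-control (0.84 ± 0.10, limma adjusted p = 0.0164). B4GALT5, a galactosyltransferase, was at 11.98 and 12.02 under sh-TOP2B, and at 11.16 and 11.31 under sh-control (0.77 ± 0.10, limma adjusted p = 0.0175). On one probe set of OGT, 229787_s_at, the 4 sorted arrays lay between 10.71 and 11.01 and the 5 arrays of the inhibitor series between 6.36 and 8.34, while on 209240_at they lay between 11.48 and 11.81 and between 9.84 and 11.33. The order was reversed on 212307_s_at, at 9.04 to 9.53 in sorted cells and 9.61 to 10.19 in the inhibitor series. It was also reversed on 207563_s_at, at 8.36 to 8.79 and 9.25 to 9.94. On 207564_x_at the series overlapped, so no direction between the series is given for OGT. The part of transfection, sorting and RNA quality in these gaps was not tested.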
